A study of Rattus norvegicus with 6 samples.

Results

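The antioxidant and NRF2 genes followed here in rat kidney were 8 in number: the transcription factor gene Nfe2l2 (ENSRNOG00000001548), its repressor gene Keap1 (ENSRNOG00000020878), and the enzyme genes Hmox1 (ENSRNOG00000014117), Nqo1 (ENSRNOG00000012772), Gclc (ENSRNOG00000006302), Cat (ENSRNOG00000008364), Sod1 (ENSRNOG00000002115) and Sod2 (ENSRNOG00000019048). They were taken by identifier from a fixed list that pairs each identifier with a symbol, and all 8 were present among the 28787 gene models of the deposited tables. The list was drawn up with earlier results of these data known. The tables carry no symbols, and the reference table of rat genes matched 0 of their 26689 Ensembl identifiers, so each name rests on that list alone. All 8 passed the filter on low counts, which kept 16324 models. The other pathway genes and the kidney cell markers that had been listed by symbol could not be matched and were not analysed here, so the tissue label was not checked against markers.

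Bulk RNA came from kidneys of male rats aged 7 weeks that had eaten a 2% salt diet for 1 week from the age of 6 weeks. The control group (3 libraries) is labelled Dahl Salt Sensitive, abbreviated here to Dahl SS, an inbred line that becomes hypertensive on dietary salt. The other group is labelled Resp18 mutant (3 libraries), and Resp18 encodes a protein of neuroendocrine secretory cells. The labels do not say what the mutation is, on which strain it is carried or whether each library came from its own animal, so the p-values cover the spread among libraries, which may be technical. The diet was shared by both groups and its effect cannot be seen here. A difference between the groups may also come from other variation between the rat lines. Libraries held 13427302 to 22854561 counted reads.

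NRF2, the product of Nfe2l2, switches on detoxifying and antioxidant genes through antioxidant response elements in DNA. In unstressed cells KEAP1 holds it in the cytoplasm and hands it to a ubiquitin ligase, and oxidants or electrophiles release it. Gclc, Hmox1 and Nqo1 are textbook targets. Catalase and the superoxide dismutases remove hydrogen peroxide and superoxide, and proximal tubule cells, which are rich in mitochondria and peroxisomes, carry much of this load in the kidney.

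Gclc and Cat were lower in all 3 mutant libraries than in any Dahl SS library, at 76.4% and 80.2% of the Dahl SS level. Such a separation in the lower direction was seen on the CPM scale in 8.47% of all tested models. Its share was 29% among the 100 most abundant models, which include both genes and were set after the values were seen. On the CPM scale, with libraries scaled by TMM factors, the other 6 genes overlapped between the groups, and on the FPKM scale, which uses library totals, Sod2 was also apart by a narrow margin. None of the 8 passed edgeR's quasi-likelihood test after adjustment over all tested models, where 2 of 16324 models (0.0123%) passed. Fold changes were negative for 5 genes and positive for 3, with a median log2 fold change of -0.06 against 0.01 over all tested models. For all 8 the 95% interval of the fold change lay within 2-fold in either direction, as it did for 13679 of 16324 tested models.

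**Figure D1:**
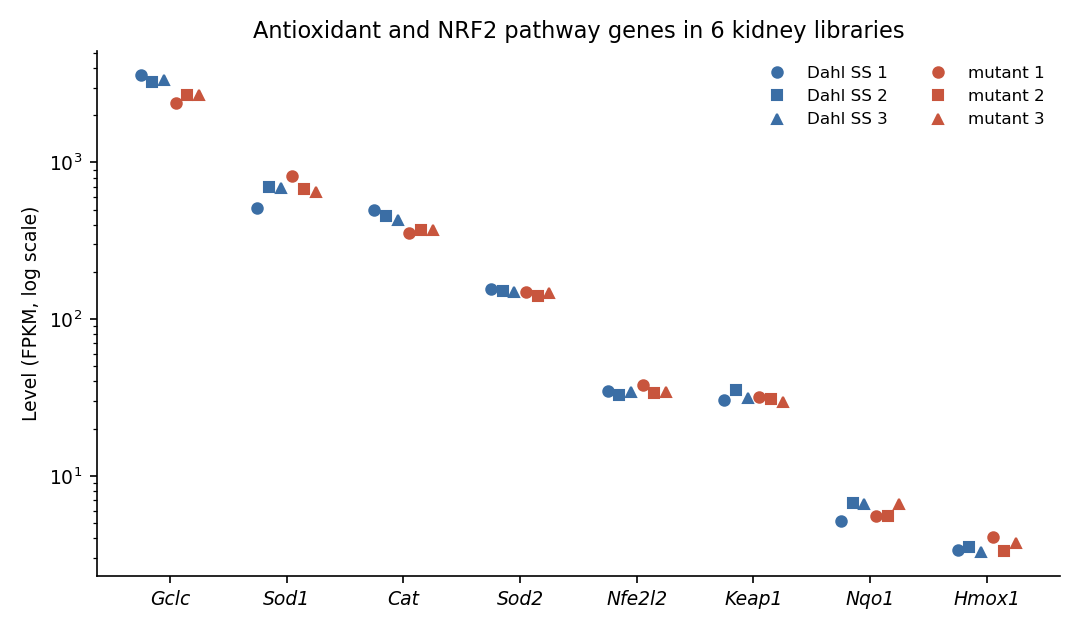
Level of each gene in FPKM (read count scaled by model length and by the library's total, log axis) in each of the 3 Dahl SS (blue) and 3 mutant (red) libraries, 1 point per library. Levels span from 3005 FPKM on average for Gclc to 3.55 for Hmox1, and the blue and red points are apart for Gclc, Cat and, narrowly, Sod2 (lowest Dahl SS value 149.0, highest mutant value 148.8).

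Levels of different genes were compared per length, on the FPKM scale. Gclc stood highest at 3005 FPKM averaged over the 6 libraries, the 14th highest of all tested models, and 846-fold above Hmox1. Sod1 followed at 672 FPKM and Cat at 413, ranks 57 and 111. Sod2 averaged 149 FPKM, Nfe2l2 34.6, Keap1 31.6, Nqo1 6.04 and Hmox1 3.55. This order held in 6 of 6 libraries for every neighbouring pair except Nfe2l2 and Keap1, for which it held in 5 of 6. The 8 genes together took 1.24% ± 0.0583 of counted reads in the controls and 0.971% ± 0.0476 in the mutants (SD, n = 3), of which Gclc alone made 1.04% ± 0.0580 and 0.789% ± 0.0526.

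Gclc encodes the catalytic subunit of glutamate-cysteine ligase, the rate-limiting enzyme of glutathione synthesis. It was counted at 10859, 10085 and 10166 CPM (read count scaled by library size, not by length) in Dahl SS replicates 1 to 3 and at 7530, 8184 and 8061 CPM in mutant replicates 1 to 3. Every mutant library was below every control library, and mutant replicate 1 was the lowest. The group means were 10370 ± 425 and 7925 ± 347 CPM (SD, n = 3). The log2 fold change was -0.39 ± 0.09 SE, which places mutants at 76.4% of the Dahl SS level (95% interval 66.8 to 87.4%). The edgeR p was 0.00145 before adjustment and 0.276 after adjustment over all tested models. An exact two-sided permutation test over the libraries gave p = 0.1, the smallest that 3 against 3 allow. Full separation of the groups fixes this value, so the test adds nothing to the separation, and Cat had the same value. DESeq2 on the same counts gave nearly the same log2 fold change, -0.39, and an adjusted p of 0.00714, and the adjusted p ran from 0.00714 to 0.825 over the 19 alternatives. It was the only one of the 8 genes past 0.05 in DESeq2, in which 48 of the 15678 models given an adjusted p (0.306%) passed in the lower direction.

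Cat encodes catalase, the peroxisomal enzyme that breaks hydrogen peroxide into water and oxygen. Its level was 1181, 1125 and 1042 CPM in Dahl SS replicates 1 to 3 and 896, 905 and 885 CPM in mutant replicates 1 to 3. The controls were spread over a wider range than the mutants, and the groups did not overlap. Means were 1116 ± 69.7 and 895.2 ± 9.87 CPM (SD, n = 3), a log2 fold change of -0.32 ± 0.08 SE. Mutants stood at 80.2% of the Dahl SS level (95% interval 70.9 to 90.8%), with an edgeR p of 0.00308 and an adjusted p of 0.313. The adjusted p ran from 0.0655, with DESeq2, to 0.825 over its alternatives.

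**Figure D2:**
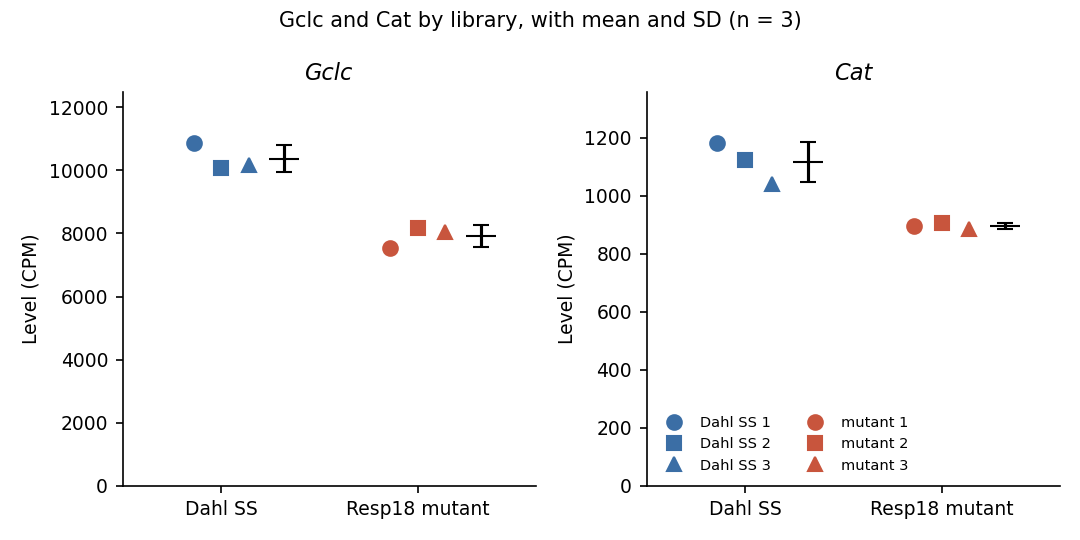
Levels of Gclc (left) and Cat (right) in CPM, with axes from 0, by group. Points are libraries, and the black bars give the mean and SD of 3 libraries. The highest mutant value, 8184 CPM for Gclc and 905 CPM for Cat, is below the lowest Dahl SS value, 10085 and 1042 CPM.

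Of all tested models, 8.47% were lower in mutants without overlap and 8.69% were higher without overlap, beside 2 and 0 of the 8 genes on the CPM scale. On the FPKM scale 8.1% of models were lower without overlap, beside 3 of the 8 genes. The gene added on that scale, Sod2, was apart by a narrow margin. Its log2 fold change was -0.06, as was the median of the 500 models nearest to it in mean CPM. The share without overlap on the FPKM scale was not counted among abundant models. An unadjusted edgeR p under 0.05 in the lower direction was reached by 5.15% of models and by the same 2 genes. Gclc and Cat are also among the most abundant models, at ranks 7 and 66 by CPM. Among the 100 most abundant models, a group set after the values were seen, 29% were lower in mutants without overlap and 4 models were higher without overlap. In the same 100, 19 models reached an unadjusted edgeR p under 0.05 in the lower direction and 4 in the higher. Within those 100, 9 models had a log2 fold change as low as that of Cat or lower, and 4 as low as that of Gclc. The median log2 fold change of the 100 was -0.06. The part of this abundance pattern in the lower Gclc and Cat values was not tested. In bulk kidney, fewer cells of a type and less RNA per cell cannot be told apart.

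**Figure D3:**
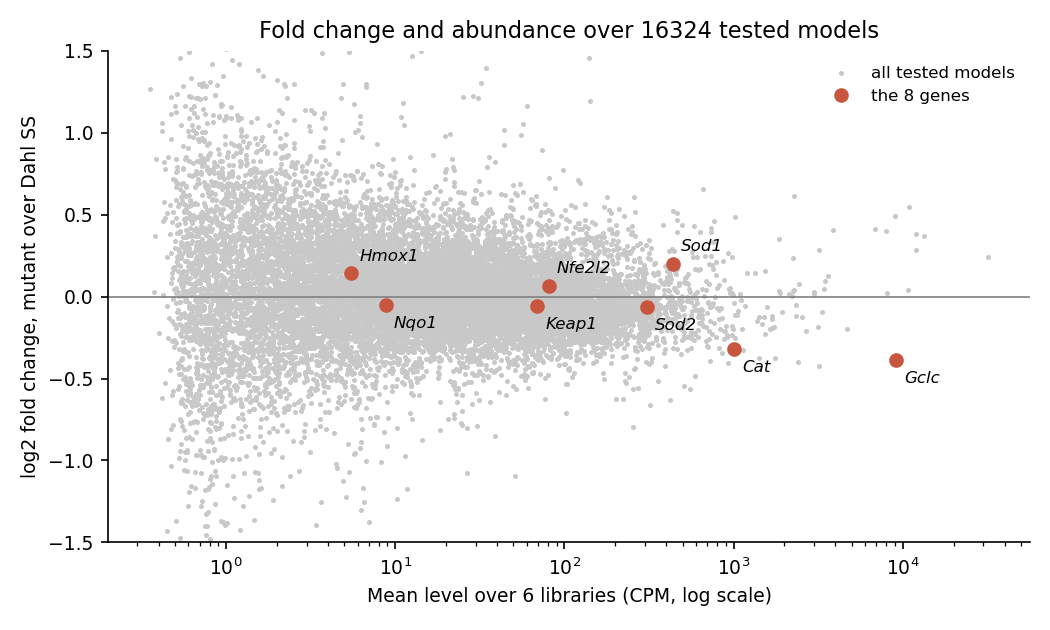
Log2 fold change of mutant over Dahl SS kidneys against the mean level in CPM (log axis) for 16324 tested models (grey) and the 8 genes (red). The vertical axis is limited to 1.5 in either direction, which leaves 61 models outside. Gclc and Cat lie at the abundant end and below the bulk of the grey points, at -0.39 and -0.32, and the other 6 genes lie between -0.06 and 0.20.

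Both genes were already apart between the groups, so the sign could hardly change with 1 library left out. With each library left out in turn, the log2 fold change stayed between -0.41 and -0.35 for Gclc and between -0.37 and -0.28 for Cat. The edgeR adjusted p then ran from 0.254 to 0.665 for Gclc and from 0.266 to 0.665 for Cat. The ratio of Gclc to Cat FPKM within a library, which does not depend on how libraries are scaled, was 7.36, 7.17 and 7.80 in Dahl SS and 6.73, 7.24 and 7.29 in mutants. These ratios overlapped between the groups.

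Because Gclc and Cat were the pair that was lower together, the sequence around their transcription starts is shown, 250 bases before to 50 bases after the start, from RefSeq on build GRCr8 (the counts were made on another build). The Cat window is chr3:110329477-110329776 on the minus strand and the Gclc window is chr8:87510226-87510525 on the plus strand. Capitals mark the letters CCAAT (a binding motif of the factor NF-Y), the TATA box letters TATAAA and the GC box letters GGGCGG on either strand, and no match overlaps another there.

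Cat: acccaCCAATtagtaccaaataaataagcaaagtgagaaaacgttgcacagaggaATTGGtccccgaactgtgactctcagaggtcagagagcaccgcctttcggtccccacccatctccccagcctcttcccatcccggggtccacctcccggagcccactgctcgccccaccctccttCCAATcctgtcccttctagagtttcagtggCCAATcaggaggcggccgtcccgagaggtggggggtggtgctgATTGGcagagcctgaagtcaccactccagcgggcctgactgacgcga
Gclc: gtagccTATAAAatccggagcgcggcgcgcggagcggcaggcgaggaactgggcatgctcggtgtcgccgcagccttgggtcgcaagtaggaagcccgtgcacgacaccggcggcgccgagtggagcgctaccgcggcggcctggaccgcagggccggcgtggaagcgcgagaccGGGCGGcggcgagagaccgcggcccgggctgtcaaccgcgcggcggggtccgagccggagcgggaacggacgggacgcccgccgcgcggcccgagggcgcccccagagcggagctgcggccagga

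The windows differ in composition, at 59.3% G and C for Cat and 76.7% for Gclc. The Cat window held 5 matches to CCAAT and neither other motif. The Gclc window held a TATAAA match 244 bases and a GGGCGG match 75 bases before the start, and lacked CCAAT. Among 33469 windows of the same length, 37.5% held CCAAT, 14.2% TATAAA and 33.1% GGGCGG on either strand.

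The core of the antioxidant response element, TGACNNNGC on either strand, was searched in the 7 genes matched by symbol in the promoter table (Hmox1 was not matched). It was found in 2 of the 7, Sod2 and Nfe2l2, and in 12.1% of the 33469 windows. These matches, in capitals with up to 10 flanking bases, are given because no other window of these genes held the letters of that element. That of Sod2, on the opposite strand, begins 35 bases before the start in chr1:50050119-50050418 (GRCr8, minus strand), and that of Nfe2l2 begins 38 bases after it in chr3:81028950-81029249 (GRCr8, minus strand).

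Sod2: ggcgctgccgGCAGGGTCAgcgcctagct
Nfe2l2: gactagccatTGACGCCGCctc

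A match describes letters in this window and not a bound site, and the element may lie outside it.

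Nfe2l2 encodes NRF2 itself. Its level was 80.0, 77.6 and 78.9 CPM in Dahl SS and 90.8, 78.9 and 77.9 CPM in mutant replicates 1 to 3. Mutant replicate 1 stood above the other 5 libraries, which lay between 77.6 and 80.0 CPM. This gave a log2 fold change of 0.07 ± 0.09 SE, 104.7% of the Dahl SS level with a 95% interval of 91.6 to 119.8% (edgeR adjusted p = 0.772). Without mutant replicate 1 the log2 fold change was -0.0011.

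Keap1 encodes the adaptor that holds NRF2 for degradation. It stood at 65.3, 77.7 and 68.0 CPM in Dahl SS and 72.2, 67.2 and 63.2 CPM in mutants, so the highest and the second lowest values were both controls. Mutants differed by a log2 fold change of -0.06 ± 0.10 SE, with a 95% interval of 82.8 to 111.7% of the Dahl SS level (edgeR adjusted p = 0.830), and it was 0.03 without Dahl SS replicate 2. The ratio of Keap1 to Nfe2l2 FPKM was 0.871, 1.07 and 0.920 in Dahl SS and 0.849, 0.910 and 0.866 in mutants. Repressor and factor transcripts were thus near parity in every library, and the ratios overlapped between the groups.

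**Figure D4:**
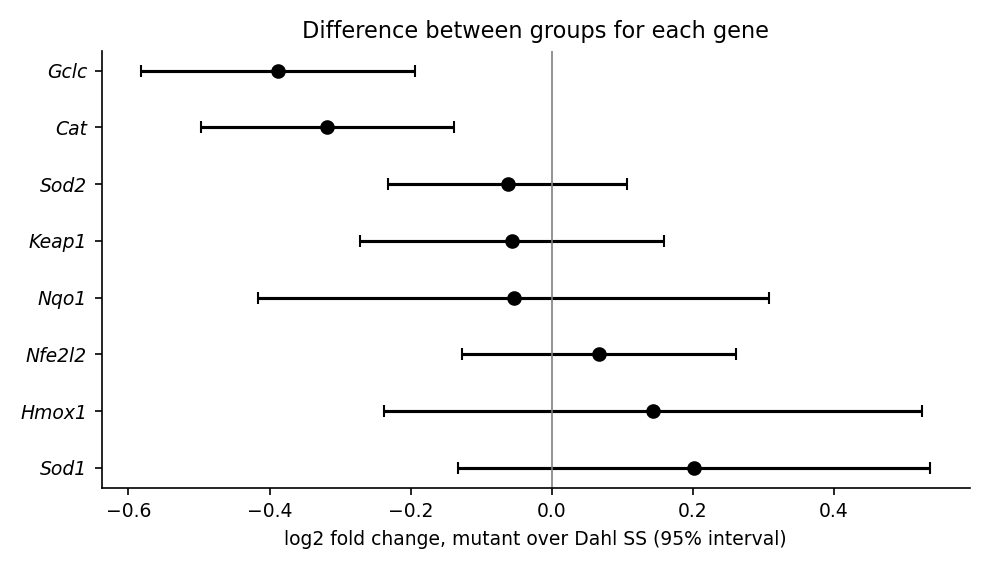
Log2 fold change of mutant over Dahl SS kidneys for each gene, with the 95% interval from edgeR's fit over 3 and 3 libraries. The intervals of Gclc (-0.58 to -0.19) and Cat (-0.50 to -0.14) lie below 0 before adjustment for the number of models tested, and the other 6 include 0.

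Hmox1 encodes the inducible heme oxygenase, which turns heme into biliverdin, iron and carbon monoxide and is commonly read as a sign of oxidative stress. It was the lowest of the 8 genes, at 119, 79 and 82 reads in Dahl SS and 138, 107 and 77 reads in mutant replicates 1 to 3. These counts correspond to 5.11, 5.52 and 5.03 CPM in Dahl SS and 6.50, 5.14 and 5.63 CPM in mutants. Mutant replicate 1 was again the highest, and mutant replicate 2 lay inside the control range. The log2 fold change was 0.14 ± 0.17 SE, with a 95% interval of 84.8 to 143.8% of the Dahl SS level (edgeR adjusted p = 0.746). Counting error was 8.51 to 11.4% of each library's value.

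Nqo1 encodes a quinone reductase that is widely used as a readout of NRF2 activity. It stood at 7.34, 9.91 and 9.63 CPM in Dahl SS and 8.33, 8.02 and 9.50 CPM in mutants, from 130 to 177 reads. All mutant values lay inside the control range, and Dahl SS replicate 1 was the lowest. The fitted log2 fold change was -0.05 ± 0.16 SE, with a 95% interval of 74.9 to 123.8% of the Dahl SS level (edgeR adjusted p = 0.912), and it ranged from -0.19 to 0.03 with 1 library left out. Its sign was positive without Dahl SS replicate 2, Dahl SS replicate 3 or mutant replicate 2. The ratio of Nqo1 to Hmox1 FPKM was 1.52, 1.90 and 2.03 in Dahl SS and 1.36, 1.65 and 1.79 in mutants, which overlapped. Of the 3 targets of NRF2 named above, Gclc was lower in all mutant libraries, and Hmox1 and Nqo1 overlapped between the groups on both scales. Whether the Gclc difference is larger than those of the other 2 was not tested.

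Sod2 encodes the manganese superoxide dismutase of mitochondria. It stood at 317, 318 and 306 CPM in Dahl SS and 317, 288 and 296 CPM in mutants. On this scale the mutant values reached from below the controls into their range. On the FPKM scale it stood at 157, 152 and 149.0 in Dahl SS and 148.8, 140 and 146 in mutants, where the groups did not overlap. The log2 fold change was -0.06 ± 0.07 SE, with a 95% interval of 85.2 to 107.7% of the Dahl SS level (edgeR adjusted p = 0.750). Of the 8 genes it had the narrowest interval on the log2 scale.

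Sod1 encodes the copper-zinc superoxide dismutase of the cytosol. It stood at 326, 456 and 442 CPM in Dahl SS replicates 1 to 3 and 549, 441 and 416 CPM in mutant replicates 1 to 3. Dahl SS replicate 1 was the lowest and mutant replicate 1 the highest, and the other 4 libraries lay between 416 and 456 CPM. The log2 fold change was 0.20 ± 0.15 SE (95% interval 91.2 to 145.0% of the Dahl SS level, edgeR adjusted p = 0.602). Its coefficient of variation (CV, the SD over the mean) was 17.5% in Dahl SS and 15.1% in mutants, beside medians of 8.15% and 7.08% over the 500 models nearest to it in abundance.

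Sod1 is the shortest of the 8 models at 650 bases, against 1455 to 3045 bases for the other 7 and a median of 2008 over tested models. The 2 libraries that stood apart for Sod1 also stood apart in how their counts went with length. The rank correlation of a library's deviation from the mean with model length was 0.37 in Dahl SS replicate 1 and -0.37 in mutant replicate 1, and between -0.17 and 0.04 in the other 4. With a fitted length trend removed from each library, the Sod1 log2 fold change was 0.07, and without both of those libraries it was -0.07. Leaving out the lowest control and the highest mutant lowers the Sod1 fold change whatever the reason those libraries stood apart. The part of the length trend in the Sod1 difference was not tested. Sod1 levels after removal of the trend were 378, 450 and 447 CPM in Dahl SS and 492, 431 and 411 CPM in mutants, so the same 2 libraries were still the lowest and the highest. For Gclc and Cat the log2 fold changes with the trend removed were -0.37 and -0.32, and without both libraries they were -0.32 and -0.28.

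**Figure D5:**
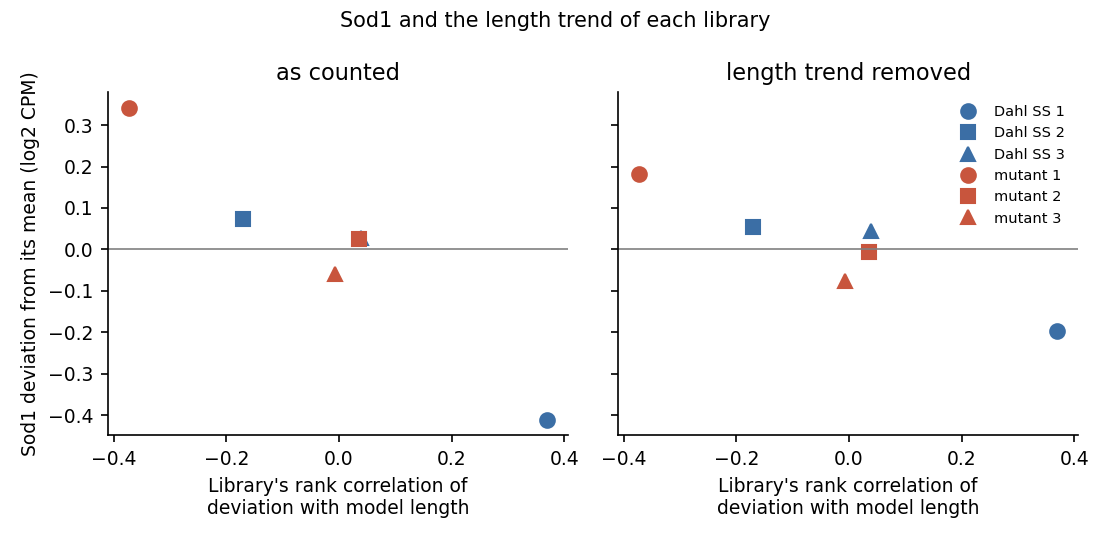
Deviation of Sod1 from its mean over the libraries (log2 CPM) against each library's rank correlation of deviation with model length, as counted (left) and with the fitted length trend removed (right). Points are libraries, blue for Dahl SS and red for mutants. Dahl SS replicate 1 and mutant replicate 1 lie at the ends of both axes, at -0.41 and 0.34 as counted and at -0.20 and 0.18 with the trend removed.

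Ratios that include Sod1 carried the same 2 libraries. The ratio of Sod2 to Sod1 FPKM was 0.307, 0.220 and 0.218 in Dahl SS and 0.182, 0.206 and 0.224 in mutants, which overlapped. The ratio of Cat to Sod1 FPKM was 0.967, 0.658 and 0.629 in Dahl SS and 0.435, 0.547 and 0.568 in mutants. Every mutant library had less Cat per Sod1 than every control library, as it had less Cat alone. No share over other pairs of models was counted. The extremes were again in Dahl SS replicate 1 and mutant replicate 1.

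The spread within groups differed among the genes. Nfe2l2 had the smallest CV in Dahl SS, 1.54%, and 8.73% in mutants, where mutant replicate 1 stood apart. The CV of Cat was 6.24% in Dahl SS and 1.10% in mutants, and that of Gclc was 4.10% and 4.38%.

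The models whose pattern was most like that of Nfe2l2 over the 6 libraries, among 9953 with a mean of at least 10 CPM, were ENSRNOG00000029152 (Pearson r = 0.987 of log2 CPM) and ENSRNOG00000018027 (r = 0.975). The first stood at 20.4 to 21.3 CPM in 5 libraries and at 34.2 CPM in mutant replicate 1, so the likeness rests on that library. Neither passed the test between the groups (edgeR adjusted p = 0.573 and 0.693).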

How the data were processed

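RNA was sequenced from 6 kidney libraries, 3 Dahl SS and 3 Resp18 mutant, prepared with a NEBNext Ultra kit per the labels' protocols. The authors deposited raw read counts by gene model, and FPKM values of those models in a second table. CASAVA 1.8, HISAT2 2.1.0, HTSeq 0.6.1 and build Rnor 5.0 are listed, with no role, per the submitters' processing notes. Neither strand use nor the handling of multiply mapped reads is stated, so reads shared with overlapping models or near-identical copies could not be told apart. Model lengths were computed from the ratio of count to deposited FPKM and came out whole to within 1.0e-10 bases. The third deposited file, which tallies models by FPKM range, was left aside.

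Counts were fitted over all models with edgeR 4.0.16 (R 4.3.3): filterByExpr defaults (minimum count 10, minimum total 15), TMM scaling, the quasi-likelihood F test with group as the sole term, and Benjamini-Hochberg adjustment over 16324 models at 0.05. A standard error is the log2 fold change over the square root of F. CPM uses the TMM-scaled library size. The fit was also run on simulated counts, drawn independently and without a length trend, so that run does not bear on such a trend here. Alternatives were DESeq2 1.42.0, limma-voom and limma 3.58.1 on log2(FPKM + 1) and log2(FPKM + 0.1) (with a minimum mean FPKM of 0.5, or unfiltered), other scalings and filters, a block for the replicate number, the removal of each library, a loess length trend entered as offsets, and the removal of both replicate 1 libraries, which show that trend most. The genes, lists and alternatives were chosen with earlier results of these data known. Every gene on the list is named; the models most like Nfe2l2 are the 2 with the highest Pearson r and a mean of at least 10 CPM.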

Additional observations from a re-analysis of the deposited data

How the results depend on the processing

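The log2 fold changes of Gclc, Cat, Sod2 and Hmox1 kept their sign under all 19 alternatives run for each. Ranges were -0.41 to -0.32 for Gclc, -0.37 to -0.28 for Cat, -0.10 to -0.03 for Sod2 and 0.03 to 0.23 for Hmox1. These alternatives reuse the same libraries, and Gclc and Cat were already apart between the groups. In the main fit the intervals of Sod2 and Hmox1 span both signs, so the signs of those genes are not settled. The Gclc call appeared with DESeq2 alone (-0.39, adjusted p = 0.00714). With 1 library left out, log2 fold changes ranged from -0.19 to 0.030 for Nqo1, -0.11 to 0.026 for Keap1 and -0.0011 to 0.11 for Nfe2l2, so their signs are not settled. Sod1 turned to -0.067 without both replicate 1 libraries, which show the length trend most and are also the lowest and the highest for Sod1. Its log2 fold change ranged from 0.06 to 0.29 with 1 library left out. The 2 models past the threshold in edgeR became 106 with DESeq2, 1 with limma-voom, 1 with each of the 3 limma fits on log2 FPKM, and 22 without both replicate 1 libraries. With 1 library left out the count ranged from 1 (without Dahl SS replicate 2) to 13 (without Dahl SS replicate 1), and was 6 without mutant replicate 3. The cause was not tested. Both groups are numbered 1 to 3, but deviations from the group means were not shared by libraries of the same number (correlations -0.274, -0.144 and -0.00176), so the numbers were not used as pairs. The fit with a replicate block again called 2 models, and the log2 fold changes of Gclc and Cat were -0.39 and -0.32 (adjusted p = 0.825 for each). Hmox1 and Nqo1 had the fewest reads of the 8 genes, 77 to 177 a library, and the largest standard errors (0.17 and 0.16, log2); no alternative varied depth.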
